A study of Mus musculus with 16 samples.

Results

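Transcript levels of 10 genes known from astrocytes were followed across the 4 groups of an RNA-Seq study of the mouse cortex. The 10 genes were taken by name from the 39179 gene identifiers of the count table, 5 as genes of astrocyte reactivity (*Gfap*, *Serpina3n*, *Vim*, *Osmr* and *Cd44*) and 5 as genes of astrocyte identity (*Aqp4*, *Aldh1l1*, *Slc1a2*, *Slc1a3* and *Gja1*). The study set wild-type C57/BL6 mice (WT) beside mice homozygous for the V338Y mutation of *Mrps5*, which encodes a small-subunit protein of the mitochondrial ribosome, knocked in at the gene itself, at 3 and at 19 months of age. Each group held 4 mice, each with its own library, and the labels name no treatment. According to its labels each sample is brain, and the methods of the study name cortex of female mice. Values by mouse are given in the order of the mouse numbers, which were 9 to 12 and 13 to 16 for WT and V338Y mice of 3 months and 12 to 15 and 17 to 20 for those of 19 months. All 10 genes passed the filter on low counts in every comparison.

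Astrocytes are the glial cells that clear neurotransmitter from the synapse, buffer potassium and water, couple to one another through gap junctions and wrap blood vessels with their endfeet. In injury, inflammation and old age they enter a reactive state, in which they thicken their intermediate filaments and raise genes for secreted and surface proteins. Cytokines of the interleukin 6 family, such as oncostatin M, drive part of this state through the gp130 receptor chain and the transcription factor STAT3. Levels in whole tissue cannot separate a change in the number of cells from a change in the RNA of each cell, and this holds for every value given here.

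Total counts per mouse were between 6181448 and 19601664. *Mrps5* itself was at 35.5 to 41.8 CPM (counts per 1000000 counts of the library) in the 8 libraries of 3 months and at 27.3 to 31.6 CPM in the 8 of 19 months, and it did not pass the test between the genotypes at either age. A codon change is not visible in gene counts, so this level does not check the genotype labels. The libraries of the ages differed in ways other than age. The 4 Y-linked transcripts summed to 244 to 288 CPM in all 8 libraries of 3 months and were at 0 in all 8 of 19 months, while *Xist*, the transcript of the inactive X chromosome, was at 0.448 to 1.23 CPM at 3 months and at 715 to 1169 CPM at 19 months, against the female sex that the methods give for all mice. The summed level of 10 cerebellar neuron markers was 726 to 1269 CPM in WT mice of 3 months and 79.8 to 97.0 CPM in the mice of 19 months. In V338Y mice of 3 months it was 1528 CPM in mouse 13, 2103 CPM in mouse 15 and 1374 CPM in mouse 16, and 106 CPM in mouse 14, which was thus the library of 3 months closest to those of 19 months. The 10 cortical neuron markers summed to 359 to 481 CPM in every library. Age cannot be told apart from the Y-linked and *Xist* transcripts in these libraries.

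**Figure D1:**
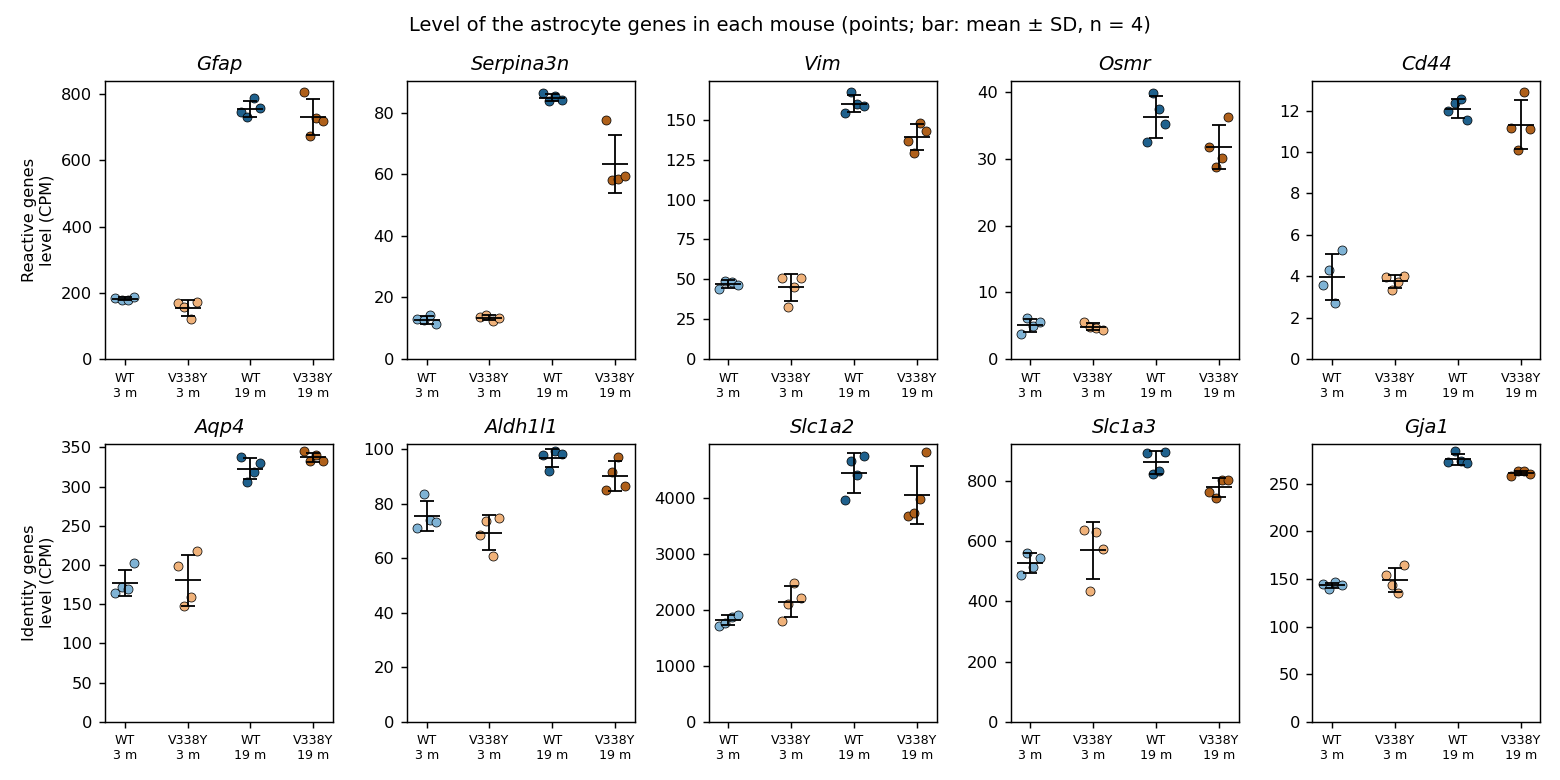
Level (CPM, linear axis from 0) of the 5 reactive genes (upper row) and the 5 identity genes (lower row) in each mouse, with 1 point per mouse and bars for mean ± SD (n = 4). In every panel the 8 mice of 19 months sit above the 8 of 3 months; among mice of 19 months, *Serpina3n*, *Vim*, *Slc1a3* and *Gja1* were lower in all 4 V338Y mice than in all 4 WT mice.

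The 9 members with an entry among the RefSeq promoters (GRCm38.p6, 250 bases before to 50 after the transcript start) were searched on both strands. The patterns were TTCNNNGAA, the site that STAT factors bind, TGANTCA, a loose AP-1 site with any middle base, and TTGGCA, a short site of nuclear factor I. Both factor groups and STAT3 are known from astrocyte genes, and the promoters with a match are printed with the match in capitals to show the bases next to it. The 3 motifs shared no bases in these windows. The STAT pattern lay in *Gfap*, starting 2 bases before the start site (position -2), and in *Slc1a3* at position -96. The AP-1 pattern lay in *Gja1* at position -19 and in *Osmr* at position 4, and the reverse complement of the nuclear factor I pattern lay in *Osmr* at position -102. Of all 32851 promoters in the table, 8.30% held the STAT pattern, 7.81% the AP-1 pattern and 14.1% the nuclear factor I pattern. A match is a description of the letters and was not tested as a binding site. The windows were chr11:102897151-102897450 on the minus strand for *Gfap*, chr15:8710758-8711057 on the minus strand for *Slc1a3*, chr10:56377050-56377349 on the plus strand for *Gja1* and chr15:6874264-6874563 on the minus strand for *Osmr*, and each is written 5′ to 3′ in the direction of the gene.
Gfap: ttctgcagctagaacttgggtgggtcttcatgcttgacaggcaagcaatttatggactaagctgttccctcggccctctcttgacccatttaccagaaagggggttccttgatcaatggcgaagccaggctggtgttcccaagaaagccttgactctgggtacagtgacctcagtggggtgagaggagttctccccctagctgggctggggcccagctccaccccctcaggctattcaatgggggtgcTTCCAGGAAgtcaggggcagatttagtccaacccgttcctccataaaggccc
Slc1a3: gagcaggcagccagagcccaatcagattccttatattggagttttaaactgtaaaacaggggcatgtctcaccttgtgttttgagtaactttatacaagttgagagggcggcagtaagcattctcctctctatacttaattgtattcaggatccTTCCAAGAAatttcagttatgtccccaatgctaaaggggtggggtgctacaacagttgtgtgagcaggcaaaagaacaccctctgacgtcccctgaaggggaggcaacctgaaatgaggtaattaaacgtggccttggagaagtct
Gja1: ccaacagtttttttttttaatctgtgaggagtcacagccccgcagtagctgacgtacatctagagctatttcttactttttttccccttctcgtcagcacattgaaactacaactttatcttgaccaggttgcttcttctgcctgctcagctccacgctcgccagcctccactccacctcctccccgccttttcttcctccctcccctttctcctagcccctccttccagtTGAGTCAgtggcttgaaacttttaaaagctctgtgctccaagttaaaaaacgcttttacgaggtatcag
Osmr: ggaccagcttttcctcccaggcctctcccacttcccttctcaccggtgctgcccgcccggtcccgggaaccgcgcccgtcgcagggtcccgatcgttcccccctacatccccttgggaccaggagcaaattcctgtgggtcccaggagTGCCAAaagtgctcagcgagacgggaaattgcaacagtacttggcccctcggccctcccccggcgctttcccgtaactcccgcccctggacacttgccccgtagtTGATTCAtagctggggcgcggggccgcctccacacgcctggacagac

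The first comparison was of 19 with 3 months within each genotype, the question of what aging does to the cortex. All 10 genes were higher at 19 months in both genotypes. The reactive genes rose by 3.10-fold (*Cd44*) to 7.11-fold (*Osmr*) in WT mice and the identity genes by 1.31-fold (*Aldh1l1*) to 2.51-fold (*Slc1a2*). In WT mice 10 of 10 genes passed the quasi-likelihood test of edgeR with Benjamini-Hochberg adjustment over all 16101 genes tested, against 31.4% of all genes called higher and 31.5% called lower, and in 10 of 10 the groups did not overlap, against 27.6% of all genes higher in that way. In V338Y mice 10 of 10 were called, against 23.1% of the 16770 genes called higher and 25.7% called lower, and 10 of 10 were without overlap, against 21.5%. Over both genotypes, each of the 10 was higher in all 8 mice of 19 months than in all 8 of 3 months, which held for 15.3% of all genes. The median log2 fold change was 2.09 for the reactive and 0.90 for the identity genes in WT mice and 2.24 and 0.82 in V338Y mice, beside -0.0050 and -0.03 over all genes tested.

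*Gfap* encodes the intermediate filament protein by which reactive astrocytes are usually stained. Its level was 184, 178, 178 and 188 CPM in the WT mice of 3 months and 168, 156, 120 and 172 CPM in the V338Y mice of 3 months. At 19 months it was 747, 730, 787 and 757 CPM in WT and 805, 673, 727 and 720 CPM in V338Y mice. The lowest value at 19 months was thus far above the highest at 3 months, and the V338Y mice spread around the WT mice at 19 months. The log2 fold change with age was 2.09 (SE 0.042, adjusted p = 5.55e-27) in WT and 2.25 (SE 0.107, adjusted p = 3.32e-08) in V338Y mice, and *Gfap* ranked 2 by p among all genes tested in WT mice. *Vim*, the gene of vimentin, which builds filaments together with GFAP and is also made by vessel and meningeal cells, was at 43.9, 49.0, 48.3 and 46.7 CPM in WT and 50.6, 32.6, 45.3 and 51.1 CPM in V338Y mice of 3 months. At 19 months it was at 155, 168, 160 and 159 CPM in WT and 137, 129, 148 and 143 CPM in V338Y mice. All V338Y values of *Vim* at 19 months lay below all WT values, and mouse 14 was the lowest of all mice at 3 months. *Vim* rose by 1.8 (SE 0.051, adjusted p = 1.78e-23) on the log2 scale in WT and by 1.64 (SE 0.127, adjusted p = 4.89e-06) in V338Y mice.

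*Serpina3n* encodes a secreted inhibitor of serine proteases that marks reactive astrocytes. Its levels at 3 months were 12.9, 12.6, 14.1 and 11.2 CPM in WT and 13.8, 14.3, 12.4 and 13.2 CPM in V338Y mice, so the genotypes overlapped. At 19 months they were 86.5, 83.7, 85.3 and 84.1 CPM in WT mice and 77.5, 58.2, 58.3 and 59.5 CPM in V338Y mice 17, 18, 19 and 20. The WT mice of 19 months lay within 3 CPM of one another, and of the V338Y mice, 3 lay close together and mouse 17 between them and the WT mice. *Serpina3n* rose by 2.78 (SE 0.068, adjusted p = 5.47e-25) on the log2 scale in WT and by 2.24 (SE 0.102, adjusted p = 6.69e-09) in V338Y mice. It belongs to a family of near-identical genes between which reads can be shared, and the 13 others in the table together summed to 2.09 to 5.27 CPM at 19 months.

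*Osmr*, the receptor chain for oncostatin M that pairs with gp130, had the largest age difference of the 10 genes. It was at 3.81, 6.12, 4.92 and 5.52 CPM in WT and 5.63, 4.82, 4.71 and 4.35 CPM in V338Y mice of 3 months, and at 32.6, 39.9, 37.5 and 35.2 CPM in WT and 31.8, 28.9, 30.1 and 36.4 CPM in V338Y mice of 19 months. The ages stood apart and the genotypes overlapped at both. The log2 fold change was 2.83 (SE 0.106, adjusted p = 3.79e-20) in WT and 2.71 (SE 0.102, adjusted p = 1.28e-09) in V338Y mice. *Cd44* encodes the surface receptor for hyaluronan, made by reactive astrocytes and by leukocytes. It was at 12, 12.3, 12.6 and 11.5 CPM in WT and 11.1, 10.1, 12.9 and 11.1 CPM in V338Y mice of 19 months, against 3.56, 4.32, 2.69 and 5.26 CPM and 3.96, 3.35, 3.70 and 3.99 CPM at 3 months. The ages did not overlap and the genotypes did. *Cd44* rose by 1.63 (SE 0.145, adjusted p = 3.43e-11) on the log2 scale in WT and by 1.60 (SE 0.118, adjusted p = 3.73e-07) in V338Y mice, on counts that were as low as 29 in 1 mouse.

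Of the identity genes, *Slc1a2* and *Slc1a3* encode the glutamate transporters GLT-1 and GLAST, which take up most of the glutamate released in the cortex. *Slc1a2* was at 1714, 1766, 1876 and 1907 CPM in WT and 1801, 2108, 2471 and 2205 CPM in V338Y mice of 3 months. It was at 3956, 4665, 4409 and 4741 CPM in WT and at 3680, 3727, 3983 and 4812 CPM in V338Y mice of 19 months. The ages stood apart, and of the V338Y mice of 19 months, mouse 20 was above all WT mice and the other 3 lay at the lower end. The log2 fold change with age was 1.33 (SE 0.054, adjusted p = 1.28e-15) in WT and 0.92 (SE 0.105, adjusted p = 2.79e-05) in V338Y mice. *Slc1a3* was at 487, 562, 515 and 543 CPM in WT and 638, 434, 631 and 574 CPM in V338Y mice of 3 months, and at 892, 823, 833 and 897 CPM in WT and 763, 743, 804 and 804 CPM in V338Y mice of 19 months. Here the V338Y mice spread widely at 3 months, with mouse 14 the lowest, and lay below all WT mice at 19 months. *Slc1a3* rose by 0.75 (SE 0.044, adjusted p = 3.55e-15) on the log2 scale in WT and by 0.46 (SE 0.106, adjusted p = 0.00429) in V338Y mice.

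*Aqp4* encodes the water channel of the endfeet. It was at 164, 173, 169 and 202 CPM in WT and 198, 148, 159 and 217 CPM in V338Y mice of 3 months, and at 337.8, 306, 318 and 330 CPM and 345, 332, 340 and 333 CPM at 19 months. The genotypes overlapped at both ages, and the ages did not. The log2 fold change was 0.90 (SE 0.053, adjusted p = 6.63e-13) in WT and 0.91 (SE 0.108, adjusted p = 6.16e-05) in V338Y mice. *Gja1*, the gene of connexin 43, the main gap junction protein of astrocytes, was at 144, 139, 146 and 143 CPM in WT and 154, 143, 135 and 165 CPM in V338Y mice of 3 months, and at 273, 285, 274 and 271 CPM in WT and 258, 264, 263 and 260 CPM in V338Y mice of 19 months. *Gja1* was the steadiest of the 10 genes within the V338Y mice of 19 months, with an SD of 0.978% of the mean (n = 4), and all 4 lay just below the WT mice. It rose by 0.98 (SE 0.041, adjusted p = 4.62e-19) on the log2 scale in WT and by 0.82 (SE 0.063, adjusted p = 5.83e-07) in V338Y mice.

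*Aldh1l1* encodes a folate enzyme used as a marker of all astrocytes, and it had the smallest age difference of the 10. It was at 71.1, 83.6, 74.1 and 73.4 CPM in WT and 68.3, 73.8, 60.7 and 74.6 CPM in V338Y mice of 3 months, and at 97.7, 92.1, 99.2 and 98.3 CPM and 85.1, 91.6, 97.1 and 86.6 CPM at 19 months. The ages came close, with the highest value at 3 months, 83.6 CPM, next to the lowest at 19 months, 85.1 CPM. The log2 fold change was 0.39 (SE 0.054, adjusted p = 2.60e-07) in WT and 0.38 (SE 0.071, adjusted p = 0.000710) in V338Y mice.

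**Figure D2:**
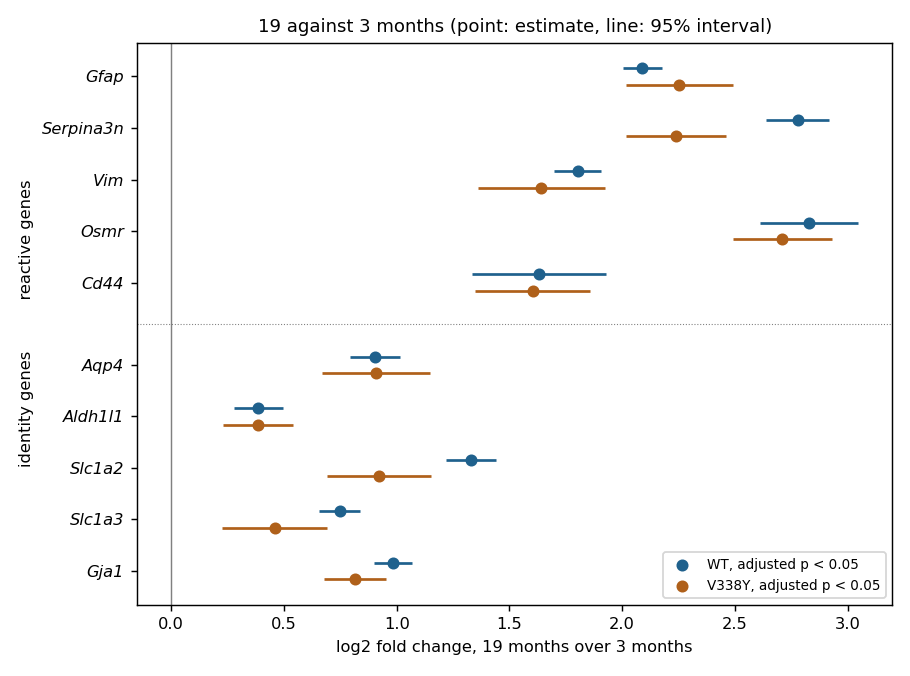
Log2 fold change of 19 over 3 months (horizontal axis) for each of the 10 genes in WT and V338Y mice, as estimate (point) and 95% interval (line), filled where the adjusted p was under 0.05. All 20 points are filled and to the right of 0; the reactive genes lie between 1.60 and 2.83 and the identity genes between 0.38 and 1.33.

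The age differences were recomputed with the libraries that held little cerebellar RNA. With mouse 14 as the only V338Y library of 3 months, a fit in which the lone mouse was assumed to vary like the others, the estimates of all 10 genes stayed above 0. Its log2 fold changes were 2.24 for *Gfap*, 2.15 for *Serpina3n*, 2.11 for *Vim*, 2.74 for *Osmr* and 1.78 for *Cd44*. For the identity genes they were 1.21 for *Aqp4*, 0.31 for *Aldh1l1*, 0.96 for *Slc1a2*, 0.86 for *Slc1a3* and 0.88 for *Gja1*. With all 4 mice of 3 months *Vim* had been at 1.64 and *Slc1a3* at 0.46. Against the other 3 V338Y mice of 3 months, mouse 14 was lower in *Vim*, *Cd44*, *Aqp4* and *Slc1a3*, higher in *Serpina3n* and within their range for the other 5 genes. In WT mice, where every library of 3 months held cerebellar RNA, the score of the cerebellar markers as a covariate left 0 of 10 genes called and 71 genes called in all, with log2 fold changes of 0.71 (*Gja1*) to 5.64 (*Osmr*), since the score separates the ages almost as the groups do. In V338Y mice the same covariate left 9 of 10 genes called by edgeR's quasi-likelihood test and 4792 genes called in all, with *Aldh1l1* at 0.25 (adjusted p = 0.142).

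Several marker lists of other cell types moved with the 10 genes, and others did not. In WT mice all 10 endothelial markers (median log2 fold change 2.17), all 10 markers of pericytes and smooth muscle (2.06), all 10 of meningeal fibroblasts (1.61) and all 10 of microglia (0.95) were higher at 19 months, and in V338Y mice the medians were 2.26, 2.02, 1.23 and 0.82, again with 10 of 10 called. The summed level of the endothelial markers went from 276 to 289 CPM over the mice of 3 months to 1102 to 1312 CPM over those of 19 months. The summed level of the microglia markers went from 255 to 350 CPM to 544 to 636 CPM. Of the 10 other leukocyte markers 5 were tested and 5 were higher in each genotype (medians 2.06 and 1.77), on sums of 12.8 to 19.7 CPM at 3 months and 51.1 to 69.1 CPM at 19 months. In the opposite direction, 7 of 10 neuron markers were lower in WT and 6 of 10 in V338Y mice (medians -0.36 and -0.23). Of 6 markers of Bergmann glia, a glial cell of the cerebellum, 1 was higher and 4 lower in WT mice, and 0 and 2 in V338Y mice. Of 8 markers of ensheathing glia 3 were higher and 2 lower in WT mice, and 3 and 1 in V338Y mice. For 10 choroid plexus markers these counts were 0 and 1 in WT and 0 and 0 in V338Y mice. Of all genes tested, 31.4% were called higher and 31.5% lower in WT mice, and 23.1% and 25.7% in V338Y mice. The counts of ensheathing markers in WT mice were near these shares. *Vim*, *Cd44* and *Osmr* are also expressed by vessel, meningeal or immune cells, and the part of those cells in the age differences was not tested.

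Compared per kilobase of exon, *Slc1a2* stood first in every group, at 138 ± 6.93 CPM per kilobase (SD, n = 4) in WT mice of 3 months and 338.3 ± 27 at 19 months. The order of the other genes differed between the ages. In WT mice of 3 months *Slc1a3* (61.7 CPM per kilobase), *Gfap* (43.2), *Aqp4* (28.4), *Aldh1l1* (16.7), *Gja1* (14), *Vim* (9.91) and *Serpina3n* (6.17) followed, and *Cd44* (0.584) and *Osmr* (0.421) were last and overlapped. In WT mice of 19 months *Gfap* (179 CPM per kilobase) stood above *Slc1a3* (101), *Aqp4* (51.8), *Serpina3n* (41.1), *Vim* (33.8), *Gja1* (26.9), *Aldh1l1* (21.4), *Osmr* (3.00) and *Cd44* (1.79), and no neighbours overlapped. *Serpina3n* had thus passed *Vim*, *Gja1* and *Aldh1l1*. V338Y mice of 19 months had the same order, but *Serpina3n* (30.7 CPM per kilobase) and *Vim* (29.4) overlapped. In V338Y mice of 3 months, *Gfap* overlapped with *Aqp4*, *Aldh1l1* with *Gja1* and *Vim* with *Serpina3n*.

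Ratios within a library show how unequally members moved, within a kind or between reactive and identity genes. The ratio of *Slc1a2* to *Slc1a3* per kilobase was 2.25 ± 0.141 (SD, n = 4) in WT mice of 3 months and 3.36 ± 0.340 at 19 months, and 2.51 ± 0.540 and 3.38 ± 0.346 in V338Y mice, where the ages overlapped. That of *Gfap* to *Vim* was 4.37 ± 0.304 and 5.31 ± 0.280 in WT and 3.97 ± 1.02 and 5.91 ± 0.481 in V338Y mice. The ratio of *Gfap* to *Aqp4* was 1.53 ± 0.118 and 3.46 ± 0.168 in WT and 1.27 ± 0.202 and 3.20 ± 0.188 in V338Y mice. *Gfap* thus gained on *Aqp4* in both genotypes without overlap of the ages. The mean log2 CPM of the 5 reactive genes minus that of the 5 identity genes was -3.99 to -3.86 in WT and -4.12 to -3.94 in V338Y mice of 3 months, and -2.63 to -2.51 in WT and -2.77 to -2.55 in V338Y mice of 19 months. The ages stood apart by this measure and the genotypes overlapped. With medians in place of means, the difference was -1.97 to -1.87 in WT and -2.54 to -2.15 in V338Y mice of 19 months, without overlap, but there the medians were the levels of single genes, *Serpina3n* and *Aqp4*.

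**Figure D3:**
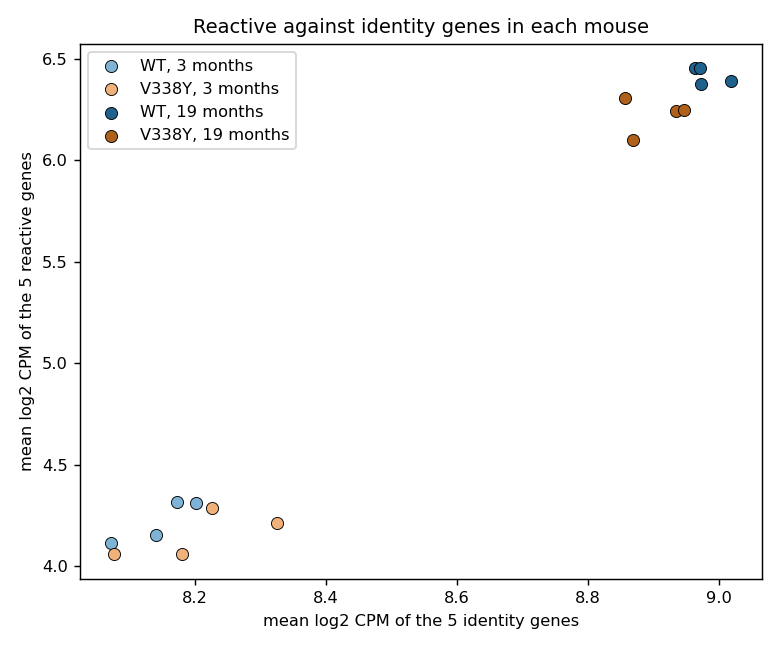
Mean log2 CPM of the 5 reactive genes (vertical axis) against that of the 5 identity genes (horizontal axis), with 1 point per mouse coloured by group. Mice of 3 months lie at 4.06 to 4.32 on the vertical axis; at 19 months the WT mice lie at 6.38 to 6.45 and the V338Y mice at 6.10 to 6.31, below all WT mice on both axes.

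The second comparison was of V338Y with WT mice of the same age, the question of what the mutation changes. At 19 months *Serpina3n*, *Vim* and *Slc1a3* were lower in V338Y mice by 27.2%, 14.4% and 11% of the WT level. These 3 of 10 genes passed the quasi-likelihood test of edgeR, all lower, against 3.12% of the 16420 genes called in either direction and 1.92% called lower. In 4 of 10, the same 3 and *Gja1*, all V338Y mice lay below all WT mice, against 4.90% of all genes lower in that way. Of the 10 estimates 9 were below 0, with *Aqp4* the exception, and the median log2 fold change was -0.22 for the reactive and -0.12 for the identity genes, beside -0.00072 over all genes tested.

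The log2 fold change of *Serpina3n*, for which V338Y mice were at 58.2 to 77.5 CPM and WT mice at 83.7 to 86.5 CPM, was -0.46 (SE 0.090, adjusted p = 0.0253). The call was not kept without every mouse, since the adjusted p was 0.0831, 0.0957, 0.0810 and 0.0937 without WT mouse 12, 13, 14 or 15, 0.0614 without V338Y mouse 18 and 0.0515 without V338Y mouse 20, while without V338Y mouse 17 the estimate was -0.56 (adjusted p = 3.18e-09). *Vim*, at 129 to 148 CPM in V338Y and 155 to 168 CPM in WT mice, differed by -0.22 (SE 0.041, adjusted p = 0.00104) and kept its call without each mouse in turn, with adjusted p up to 0.0116. *Slc1a3*, at 743 to 804 CPM in V338Y and 823 to 897 CPM in WT mice, differed by -0.17 (SE 0.039, adjusted p = 0.0112), which was lost without WT mouse 15 (adjusted p = 0.0686) or V338Y mouse 18 (adjusted p = 0.0584). In a fit of all 16 mice, the more variable V338Y mice of 3 months enter the estimate of the spread. There *Serpina3n* was the only one of the 3 to stay called, and the adjusted p was 0.434 for *Vim* and 0.580 for *Slc1a3*.

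The other 7 genes did not pass the test. The estimates were -0.07 for *Gfap* (95% interval -0.16 to 0.03, adjusted p = 0.502), -0.22 for *Osmr* (-0.36 to -0.07, adjusted p = 0.111) and -0.12 for *Cd44* (-0.31 to 0.08, adjusted p = 0.603). For *Gfap* the interval leaves room for a level up to 0.16 log2 lower in V338Y mice. *Osmr* was called without WT mouse 12 (-0.28, adjusted p = 0.0261) or V338Y mouse 20 (-0.28, adjusted p = 0.0236). Among the identity genes the estimates were 0.04 for *Aqp4* (-0.04 to 0.12, adjusted p = 0.646), -0.12 for *Aldh1l1* (-0.22 to -0.02, adjusted p = 0.190), -0.16 for *Slc1a2* (-0.40 to 0.09, adjusted p = 0.526) and -0.10 for *Gja1* (-0.17 to -0.02, adjusted p = 0.154). Without V338Y mouse 20, the one above all WT mice, *Slc1a2* was called at -0.24 (adjusted p = 0.0140).

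**Figure D4:**
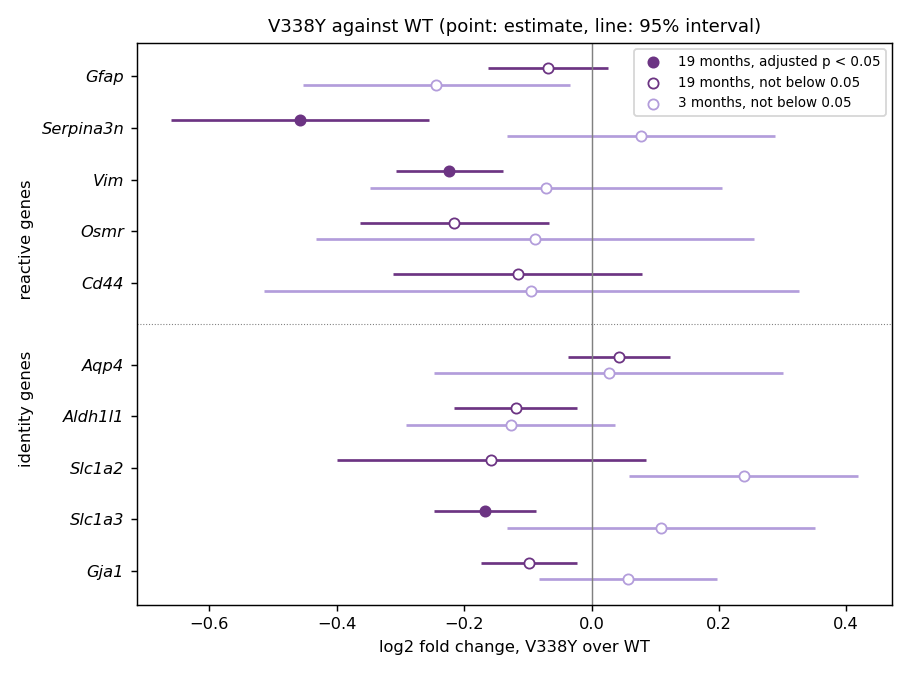
Log2 fold change of V338Y over WT mice (horizontal axis) for each of the 10 genes at 19 and at 3 months, as estimate (point) and 95% interval (line), filled where the adjusted p was under 0.05. The filled points are *Serpina3n* at -0.46, *Vim* at -0.22 and *Slc1a3* at -0.17, all at 19 months; no point of 3 months is filled.

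Markers of other cell types were compared between the genotypes at 19 months in the same fit. By the quasi-likelihood test of edgeR 0 of 10 endothelial markers passed (median log2 fold change -0.06; 5 at an unadjusted p under 0.05 and 0 by DESeq2), as did 0 of 10 choroid plexus markers (median 0.58; 0 and 0 in the same order), and 1 of 10 mural markers was lower (median -0.10). Lower were 4 of 10 microglia markers (median -0.15), 3 of 10 meningeal markers with 1 higher (median -0.26) and 1 of the 5 leukocyte markers tested (median -0.33). DESeq2 called 0 microglia, 0 leukocyte, 3 meningeal and 2 mural markers. Of the 10 neuron markers 2 were higher in V338Y mice, *Tubb3* (0.22, adjusted p = 0.000412) and *Nefm* (0.26, adjusted p = 0.00411), with a median of 0.08. Microglia markers summed to 544 to 593 CPM in V338Y and 604 to 636 CPM in WT mice, and meningeal markers to 1548 to 2132 CPM and 1889 to 2495 CPM. The part of these cells in the lower *Serpina3n* and *Vim* was not tested.

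At 3 months 0 of 10 genes passed the quasi-likelihood test of edgeR between the genotypes, with adjusted p of at least 0.926, against 0.0616% of the 16241 genes called. At an unadjusted p under 0.05 there were 2 of 10, and DESeq2 called 0 of 10. These 2 were *Gfap*, at -0.24 (95% interval -0.45 to -0.03, unadjusted p = 0.0265), and *Slc1a2*, at 0.24 (0.06 to 0.42, unadjusted p = 0.0130). *Gfap* was the 1 gene of the 10 in which all V338Y mice lay below all WT mice, at 120 to 172 against 178 to 188 CPM, which held for 1.82% of all genes. The spread within V338Y mice of 3 months was wide, with an SD of 15.4% of the mean for *Gfap*, 19.1% for *Vim*, 18.1% for *Aqp4* and 16.6% for *Slc1a3*, against 2.58%, 4.89%, 9.67% and 6.21% in WT mice (n = 4 each). These were the mice among which the cerebellar markers ranged from 106 to 2103 CPM.

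Whether a gene rose by the same amount in both genotypes was asked with an interaction term over all 16 mice. By the quasi-likelihood test of edgeR 0 of 10 genes passed, against 0.0535% of the 16831 genes tested, while 3 of 10 had an unadjusted p under 0.05 and DESeq2 called 0 of 10. These were *Serpina3n*, whose rise was smaller in V338Y mice by 0.52 on the log2 scale (95% interval 0.25 to 0.79, adjusted p = 0.146), *Slc1a2*, smaller by 0.39 (0.13 to 0.64, adjusted p = 0.283), and *Slc1a3*, smaller by 0.27 (0.02 to 0.52, adjusted p = 0.458). Leaving out single mice changed the call of *Serpina3n* and of *Slc1a3*. Without V338Y mouse 17 of 19 months *Serpina3n* was called at -0.64 (adjusted p = 0.00714), and without V338Y mouse 14 of 3 months *Slc1a3* was called at -0.38 (adjusted p = 0.0180). For the other 7 genes the estimates ranged from -0.15 (*Gja1*) to 0.18 (*Gfap*).

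Other genes of the same pathways were taken from lists of textbook members. The counts called in each list are to be read beside the shares of all genes tested. With age these were 31.4% higher and 31.5% lower in WT mice, and 23.1% and 25.7% in V338Y mice. Between the genotypes at 19 months 1.92% were called lower in V338Y mice. Of 30 further astrocyte markers, 26 were higher with age in WT mice (median 0.69) and 23 in V338Y mice (median 0.63), and none was lower. The largest rises in WT mice were those of *Atp1b2*, a subunit of the sodium pump (1.56, adjusted p = 1.11e-05), *Kcnj10*, the potassium channel Kir4.1 (1.31, adjusted p = 1.15e-08), *Apoe*, the lipid carrier (1.17, adjusted p = 1.03e-19), and *Mertk*, a receptor for engulfing debris (1.14, adjusted p = 1.48e-16). In V338Y mice *Atp1b2* (0.77, adjusted p = 0.173) and *Kcnj10* (0.62, adjusted p = 0.0601) did not pass the test and the ages overlapped. *Aldoc*, *S100b*, *Slc7a10* and *Acsbg1* did not pass the test in WT mice, at -0.02, 0.04, 0.11 and 0.08. Between the genotypes at 19 months 2 of 30 were lower by edgeR's quasi-likelihood test, *Mertk* (-0.28, adjusted p = 0.000372) and *Gjb6* (-0.16, adjusted p = 0.0381), with a list median of -0.07. DESeq2 called 1 of the 30.

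Reactive genes are often sorted into a common set, a set named A1, seen after inflammation, and a set named A2, seen after ischemia. Of the 8 further genes of the common set, 7 were higher with age in WT mice and 8 in V338Y mice (medians 1.87 and 1.98), with rises in WT mice, among genes that averaged 50 normalized counts or more at 19 months, led by *Cp*, the copper carrier ceruloplasmin (2.47, adjusted p = 2.37e-23), and *S1pr3*, a receptor for sphingosine 1-phosphate (1.98, adjusted p = 9.41e-15). The less abundant *Cxcl10* (3.14, adjusted p = 1.79e-05) and *Steap4* (2.76, adjusted p = 2.32e-08) rose by more, on means of 12.4 and 27.7 normalized counts. *Lcn2*, the iron-binding lipocalin 2, was the gene not called in WT mice (1.47, adjusted p = 0.0719) and had the largest rise in V338Y mice (3.89, adjusted p = 5.62e-05). Of the 12 A1 genes 10 were higher in each genotype with age (medians 1.98 and 1.36), and of the A2 genes 7 of 9 tested in WT and 7 of 10 in V338Y mice (medians 1.57 and 1.45). Lower with age were 1 A1 gene in WT mice, 0 A1 genes in V338Y mice and 1 A2 gene in each genotype.

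At 19 months the median genotype difference of the A1 list lay further from 0 than those of the common and A2 sets, with 6 of 12 genes lower in V338Y mice and none higher (median -0.40). The interferon-induced GTPases *Iigp1* (-1.09, SE 0.100, adjusted p = 4.25e-09) and *Gbp2* (-0.90, SE 0.078, adjusted p = 1.64e-09) led, followed by *Serping1*, the inhibitor of complement C1 (-0.55, adjusted p = 0.000138), and *Psmb8*, a subunit of the immunoproteasome (-0.45, adjusted p = 0.00752). These genes are induced by interferon in many cell types and do not mark astrocytes alone. Of the common set 1 of 8 was lower, *Cp* (-0.36, adjusted p = 0.00443), and of the A2 genes 0 of 10 tested passed the quasi-likelihood test of edgeR, with 3 at an unadjusted p under 0.05 and 0 by DESeq2.

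**Figure D5:**
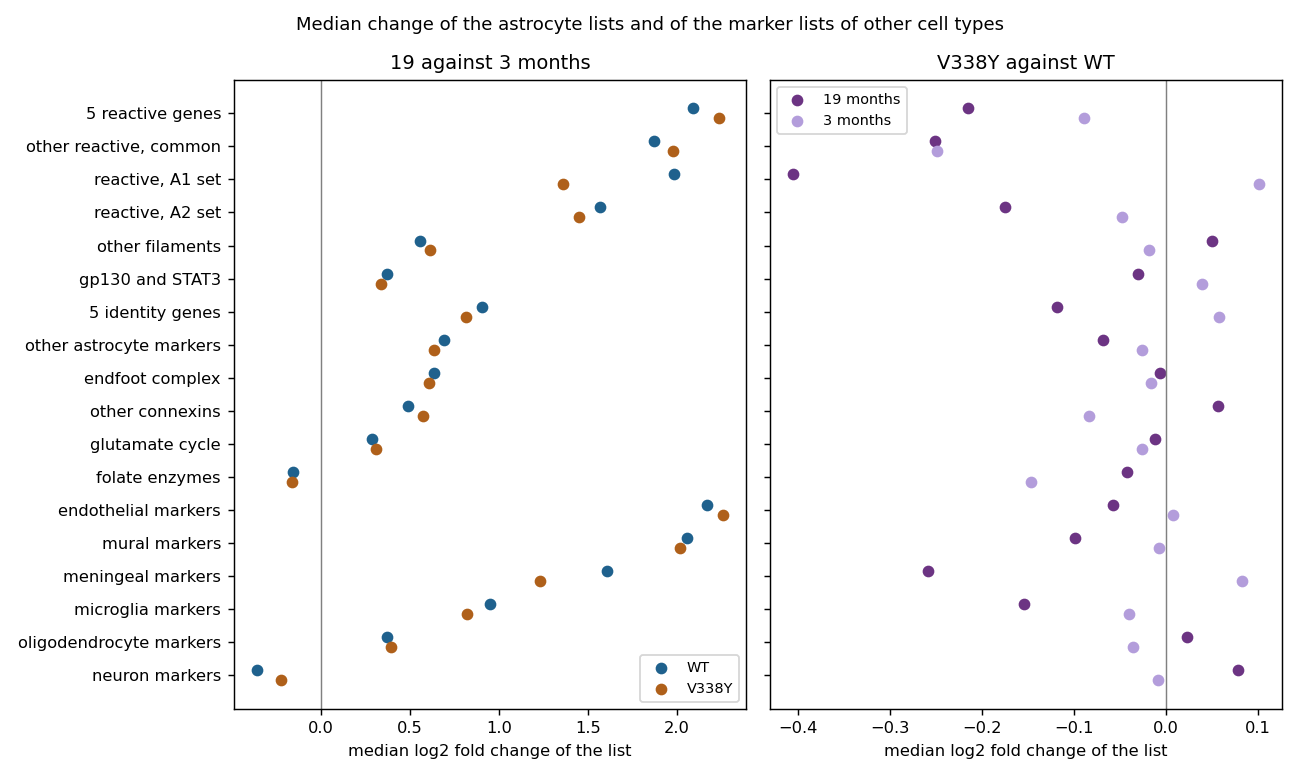
Median log2 fold change (horizontal axis) of the astrocyte lists and of the marker lists named on the vertical axis, which leave out the choroid plexus markers, with age on the left (WT and V338Y mice) and with genotype on the right (19 and 3 months). With age the reactive lists and the endothelial and mural markers lie between 1.36 and 2.26 and the identity genes and other astrocyte markers between 0.63 and 0.90; with genotype at 19 months the A1 list lies furthest from 0 of the lists plotted, at -0.40.

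Of the gp130 pathway to which *Osmr* belongs, genes of ligands, receptors and the factors that pass the signal on were listed. The ligand genes *Osm*, *Il6*, *Il11* and *Clcf1* did not pass the filter on low counts. The ligand genes *Lif* (2.0, adjusted p = 0.00281) and *Cntf* (0.48, adjusted p = 0.0240) were higher with age in V338Y mice, at a mean of 11.6 and 53.5 normalized counts at 19 months. In WT mice *Lif* did not pass the filter and *Cntf* was at 0.59 (adjusted p = 0.0535). In WT mice 5 of the 13 genes tested were higher with age and none was lower, against 31.4% of all genes called higher, a share near that of the list. They included the receptor chains *Il6ra* (1.70, adjusted p = 2.37e-11) and *Il6st*, which is gp130 (1.03, adjusted p = 3.55e-10), the factor *Stat3* (0.69, adjusted p = 7.31e-13) and its feedback inhibitor *Socs3* (1.37, adjusted p = 5.68e-09). In V338Y mice 8 of 14 were higher, against 23.1% of all genes, with *Socs3* at 1.45, *Il6ra* at 1.39, *Il6st* at 0.83 and *Stat3* at 0.54. *Stat3* was the 1 of 14 genes lower in V338Y mice at 19 months by edgeR's quasi-likelihood test (-0.16, adjusted p = 0.0348). DESeq2 called 0 of the 14.

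Beside *Gfap* and *Vim*, the filament genes *Des* (2.06, adjusted p = 1.55e-10), *Nes* (1.84, adjusted p = 5.54e-16), *Synm* (0.90, adjusted p = 9.96e-14) and the linker *Plec* (0.56, adjusted p = 2.92e-05) were higher with age in WT mice, as 4 of 7 genes with 2 lower, and 5 of 7 were higher and 1 lower in V338Y mice. Of all genes tested, 31.4% were called higher in WT and 23.1% in V338Y mice. *Des* encodes desmin, a filament of smooth muscle and pericytes. Of 11 genes of the complex that anchors *Aqp4* in the endfoot, 10 were higher in WT and 8 in V338Y mice, with *Utrn*, which encodes utrophin, at 1.25 (adjusted p = 6.18e-21) and 1.16 (adjusted p = 2.00e-08). At 19 months *Utrn* (-0.15, adjusted p = 0.0372) and *Dtna*, the gene of dystrobrevin alpha (-0.14, adjusted p = 0.0467), were lower in V338Y mice by edgeR's quasi-likelihood test. DESeq2 called 1 of the 11 genes there.

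Among 5 other glial connexins, 3 were higher with age in WT and 4 in V338Y mice, against 31.4% and 23.1% of all genes. *Gjb6*, the gene of the second astrocyte connexin, connexin 30, was at 0.67 (adjusted p = 6.20e-13) and 0.68 (adjusted p = 2.48e-06). At 19 months *Gjb6* (-0.16, adjusted p = 0.0381) and *Gjb2*, the gene of connexin 26 (-0.29, adjusted p = 0.0499), were lower in V338Y mice by edgeR's quasi-likelihood test. There 1 of the 5 connexins was higher, and DESeq2 called 0 of the 5. Of 12 other genes of glutamate uptake and the glutamine cycle, 8 were higher and 2 lower in WT and 7 higher and 2 lower in V338Y mice. The glutamine transporter *Slc38a3* rose by 1.09 (adjusted p = 6.44e-17) and 1.0 (adjusted p = 2.16e-07), and *Slc1a6*, the glutamate transporter of Purkinje cells, fell by 1.89 (adjusted p = 7.27e-10) and 1.94 (adjusted p = 0.0144) on the log2 scale. Between the genotypes at 19 months 0 of these 12 genes passed the quasi-likelihood test of edgeR, with 1 at an unadjusted p under 0.05 and 0 by DESeq2.

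Of the 10 folate enzymes beside *Aldh1l1*, 3 were lower with age and 1 higher in WT mice, and 2 were lower in V338Y mice. Of all genes tested 31.5% were called lower in WT and 25.7% in V338Y mice, so the share of lower enzymes was near that of all genes. Among those called in both genotypes was *Mthfd2*, a mitochondrial enzyme of the pathway, at -0.87 (adjusted p = 3.84e-07) and -0.45 (adjusted p = 0.0174). Of the genes around *Cd44* that make, cut or bind hyaluronan, 5 of 8 tested were higher with age in WT and 4 of 9 in V338Y mice. The shares over all genes were 31.4% and 23.1%. *Hyal1*, a hyaluronidase, was at 1.07 (adjusted p = 1.01e-10) and 0.92 (adjusted p = 7.54e-05). At 19 months 1 of 9 was lower in V338Y mice by edgeR's quasi-likelihood test, the hyaluronidase *Cemip2* (-0.22, adjusted p = 0.0314). DESeq2 called 0 of the 9.

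The members lie on 7 chromosomes, with *Slc1a2* (2:102658659-102790784, plus strand) and *Cd44* (2:102811141-102901665, minus strand) as neighbours, 20.4 kilobases apart on GRCm38. Both sit on the chromosome of *Mrps5*, 24.8 and 24.7 megabases from it, and *Vim* lies 114 megabases away. Both neighbours rose with age in both genotypes, *Slc1a2* by 1.33 and *Cd44* by 1.63 in WT mice on the log2 scale, and the difference between their changes was not tested. Antisense and other genes overlapping a member had at most 2 counts in any mouse. Over the 16 mice, after the group means were taken out, the Pearson correlation between members ranged from -0.51 (*Serpina3n* and *Cd44*) to 0.83 (*Vim* and *Slc1a3*) over the 45 pairs, with a median of 0.10. These values share the libraries and their cerebellar content and are given as a description.

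The genes most like *Gfap* in this measure, among the 12860 genes that averaged 50 normalized counts or more, were *H2-Ab1* (Pearson r = 0.93, Spearman rho = 0.73), *Mpeg1* (0.91 and 0.83), *Irgm1* (0.88 and 0.79), *Ctss* (0.88 and 0.63) and *Rps6* (0.88 and 0.74), over 16 mice. Among those most like *Slc1a2* were *Bmpr2* (0.93 and 0.91), *Jph4* (0.93 and 0.89), *Zfhx2* (0.92 and 0.89) and *Psd3* (0.92 and 0.86). No astrocyte marker of the lists was among the genes named here.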

How the data were processed

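RNA of 16 mice in 4 groups of 4 was sequenced with single-end reads, and the sample labels gave each mouse's number, age and genotype. The authors deposited expected counts per gene without normalization, as whole numbers with at most 4 significant digits, so that all 1495 values of 10000 or more end in 0. The methods of the study name RSEM with the Ensembl annotation and GRCm37 for this step, while the submitters' processing notes name bcl2fastq 1.8.4, STAR 2.4.2a, featureCounts and GRCm38, and the table itself holds identifiers only. The labels describe RNA from muscle in the extraction text and brain as the tissue. Symbols, positions and exon lengths were taken for 37693 of 39179 identifiers from the GENCODE annotation of GRCm38, by Ensembl identifier, and promoters from RefSeq (GRCm38.p6).

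For each pair of groups a gene was kept when 50% or more of the mice of either group had 10 counts or more. In R 4.3.3 counts were normalized with TMM and tested with the robust quasi-likelihood test of edgeR 4.0.16 (limma 3.58.1), with Benjamini-Hochberg adjustment over all genes kept and a threshold of 0.05. The interaction was fitted over all 16 mice. Levels are CPM with TMM factors (0.957 to 1.03), divided by exon length in kilobases where genes are compared, and log2 CPM used a prior count of 2. Standard errors and 95% intervals come from the same fits. The steps were tested on simulated counts. Total counts per mouse limit the precision, and nothing states which mice were litter-mates or processed together. The p-values weigh a group difference against the spread between mice within the groups. They cannot tell such a difference from one of litter or batch.

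The alternatives were other size factors (RLE, upper quartile, library size only), other filters on counts, the likelihood-ratio test, DESeq2 1.42.0, a fit of all 16 mice, the cerebellar marker score as a covariate, removal of trends on GC content and length, and leaving out each mouse. The fit with mouse 14 as the only V338Y library of 3 months and the means of the 5 genes in place of medians were chosen after seeing the data. All 10 members are named. From each other astrocyte list at most 4 genes per comparison are named, those called that averaged 50 normalized counts or more in the group where they were higher, by size of change, and genes of a list that were not called were named after their values were seen. The members and lists were chosen with earlier results of these data known. Values of some genes in the lists and among the genes most like a member are not reported here.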

Additional observations from a re-analysis of the deposited data

Results flagged for a closer look

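Among the V338Y mice of 19 months, mouse 17 stood far from the other 3. Its *Serpina3n* level was 77.5 CPM against 58.2 to 59.5 CPM, a gap of 0.936 of the whole range of the group, above Dixon's critical value for 4 samples. The median log2 CPM of its 5 reactive genes, 6.28, and that median minus the median of the 5 identity genes, -2.15, stood apart in the same way, with gaps of 0.926 and 0.854 of the range. The gene of middle level among the 5 reactive genes was *Serpina3n* in these mice, so the median was its level and the 3 values are not independent. Chance gives such a gap in about 1 in 20 groups, and 3 of the 52 groups of values examined had one. Without mouse 17 the genotype difference of *Serpina3n* at 19 months was -0.56 (adjusted p = 3.18e-09 by edgeR's quasi-likelihood test) instead of -0.46.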

How the results depend on the processing

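All age calls of the 10 genes held under every other size factor, filter, test and left-out mouse. With the cerebellar score as a covariate, the WT age comparison kept its directions but gave 71 genes called, 0 members called and medians of 2.4 (reactive) and 1.51 (identity), and the V338Y age comparison gave 4792 genes called. Between the genotypes at 19 months the genes called numbered 791 without a filter, 120 in the fit of all 16 mice and 126 with the covariate, against 512, with 1 member called in the last 2 fits. With the covariate *Aldh1l1* reversed to 0.0242. *Slc1a3* also lost its call there with the likelihood-ratio test (adjusted p = 0.0917) and without the GC and length trends (adjusted p = 0.0594). Using library size only, 57.6% of the 19-month genotype calls were higher in V338Y mice against 38.3%, and 48.2% were without a filter. The same scaling made 39.8% of the WT and 39.1% of the V338Y age calls higher, against 49.9% and 47.4%, and upper-quartile factors made 57.1% of the V338Y calls higher. At 3 months 20 genes were called without a filter, 26 by DESeq2, 26 by the likelihood-ratio test and 23 in the fit of all 16 mice, against 10. For the interaction 32 were called without a filter (with *Serpina3n* at adjusted p = 0.0419 as 1 member), 43 by DESeq2, 35 by the likelihood-ratio test, 111 with the covariate (with *Slc1a3* at adjusted p = 0.0105 as 1 member) and 20 without the GC and length trends, against 9. Its estimates near 0 reversed for *Cd44* (0.0034 with library size only, 0.0029 without a filter, 0.0313 without the trends), *Aqp4* (-0.0342 with the covariate) and *Aldh1l1* (-0.0213 without the trends). The cause of these changes was not tested.

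Leaving out each mouse gave 287 to 611 genes and 1 to 4 members called at 19 months, 6 to 13 genes at 3 months, and 1 to 57 genes and 0 to 1 members for the interaction. Estimates that changed sign ranged at 3 months from -0.0767 to 0.116 for *Aqp4*, -0.187 to 0.0177 for *Osmr*, -0.243 to 0.0715 for *Cd44* and -0.142 to 0.0606 for *Vim*, and for the interaction from -0.174 to 0.140 for *Cd44*, -0.0527 to 0.0515 for *Aldh1l1* and -0.0615 to 0.129 for *Aqp4*. No paired analysis was possible because each library came from a different mouse. The number 12 occurs in WT mice of both ages. The Y-linked transcripts summed to 288 CPM in that mouse of 3 months and to 0 CPM in that of 19 months.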
